A study of Mus musculus with 15 samples.

Results

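The acetylation of lysine 27 of histone H3 (H3K27Ac) was compared between C10 cells that had not been induced (0 hours post-induction, hpi) and C10 cells 3 hours after induction (3 hpi). C10 cells are descendants of HAFTL, a pre-B line of the mouse, and carry C/EBPα fused to the hormone-binding part of the estrogen receptor (C/EBPαER) together with GFP. Induced cells received 100 nM β-estradiol and were grown with IL-3 and CSF-1, each at 10 nM, while control cells received the solvent, 0.1% ethanol. The estradiol dose is that of the labels, and the study's methods give a higher one. All cells grew in medium without phenol red and with charcoal-treated serum, which keeps other estrogens low. Of the 15 libraries of the series, which cover 3 histone marks at 0, 3, 12, 24 and 48 hpi, 2 make up this comparison, with 1 library at each time. There is therefore no spread between samples and no test, and a difference below is a difference between 2 libraries. The labels do not say whether the 0 hpi cells also received the cytokines, so estradiol, IL-3, CSF-1 and culture time cannot be told apart as sources of a difference. The cells are 1 transgenic line, not primary B cells.

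H3K27Ac is a mark of active chromatin that the acetyltransferases P300 and CBP place at the starts of active genes and at active enhancers, stretches of regulatory DNA that can lie far from the gene they act on. Poised enhancers often carry H3K4Me1 (mono-methylated lysine 4) without H3K27Ac, and H3K27Me3 (trimethylated lysine 27) marks chromatin silenced by Polycomb, on the same lysine that can be acetylated. C/EBPα is a bZIP transcription factor of the granulocyte and macrophage lineage, and when it is active in B lineage cells it can turn them into macrophage-like cells. IL-3 signals through STAT5, and CSF-1 is the growth factor of macrophages.

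The deposited files held 15.93 M aligned tags at 0 hpi and 18.37 M at 3 hpi. After 1 tag per position was kept, both libraries were thinned to the same 15.22 M tags, which averages 20.6 tags per 3 kb, and all tag numbers below are on that scale. The files did not look alike: the 0 hpi file, like those of 12 and 48 hpi, opened with chromosome 2 and held tags on unplaced contigs (9011 at 0 hpi), while the files of 3 and 24 hpi opened with chromosome 1 and held 0 such tags. Of 164957 bins of 1 kb with at least 40 tags in the files of the first kind 0 lacked tags in those of the second kind, and 0 of 120968 the other way round. The part of the file kind in the changes was not tested, and with 1 file a time it cannot be told apart from the time itself. A segment of the immunoglobulin heavy chain locus held 523 tags at 0 hpi and 438 at 3 hpi, against 1, 0 and 1 at 12, 24 and 48 hpi and at most 4 in the H3K4Me1 and H3K27Me3 libraries of 0 and 3 hpi. It holds 1 of the distal windows described below. Why the libraries differ there was not tested, and the difference bears on the comparisons with other marks and later times below. The cell type was as labelled: the pre-B markers Pax5, Ebf1, Vpreb1, Igll1, Cd79a, Cd79b and Blnk held between 1019 and 1578 tags at their starts at 0 hpi. The 8 macrophage markers (Csf1r, Cd14, Itgam, Lyz2, Emr1, Mrc1, Fcgr1 and Mmp12) held 9 to 121 tags at 0 hpi and 11 to 260 at 3 hpi, and their sum went from 332 to 801 tags. The sum rests mostly on Cd14 (34 to 247) and Lyz2 (121 to 260), while Itgam (34 to 11) and Mrc1 (32 to 25) were lower at 3 hpi and the others higher. Of 6 T cell markers 1, Gata3, reached the minimum for counting, and of 5 erythroid and megakaryocyte markers 4 did, with a sum of 402 tags at 0 hpi and 222 at 3 hpi.

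Change was measured in windows of 3 kb, either centred on the start of a protein-coding gene or placed on an enriched site more than 2.5 kb from every annotated start (a distal window). A window was counted when it held at least 40 tags over the 2 libraries. Its change is the log2 of the tags at 3 hpi over those at 0 hpi with 5 tags added to each, and it is called higher or lower at 3 hpi when the change reaches 2-fold. The 95% interval given for a log2 ratio is exact, covers counting error only, and belongs to the plain ratio without the added tags, so that for a window with a handful of tags at one time the change can lie below it. In such a population of cells, fewer cells with the mark and less mark in each cell cannot be told apart.

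A smaller share of gene starts than of distal windows reached a 2-fold change. Of 22342 gene starts 11429 were counted, of which 379 (3.32%) were higher and 312 (2.73%) lower at 3 hpi, with a median change of 0.13 (95% interval over windows 0.12 to 0.13). Of 14041 distal windows, all of them counted, 1524 (10.9%) were higher and 2935 (20.9%) lower, with a median change of -0.35 (-0.36 to -0.33). Changes of 4-fold ran the other way at distal windows, with 645 higher and 357 lower, and at starts 72 were higher and 25 lower. No called window had a 95% interval that reached a ratio of 1. The minimum of tags for counting and the 2-fold rule already set this outcome, so it is no check on the calls. The larger number of lower distal windows and the median below 0 held on each of the 20 chromosomes used, with distal medians between -0.47 and -0.19 and start medians between 0.05 and 0.25. The chromosomes share the same 2 libraries and the same scale, which can move all of them alike, so this is no independent check.

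**Figure D1:**
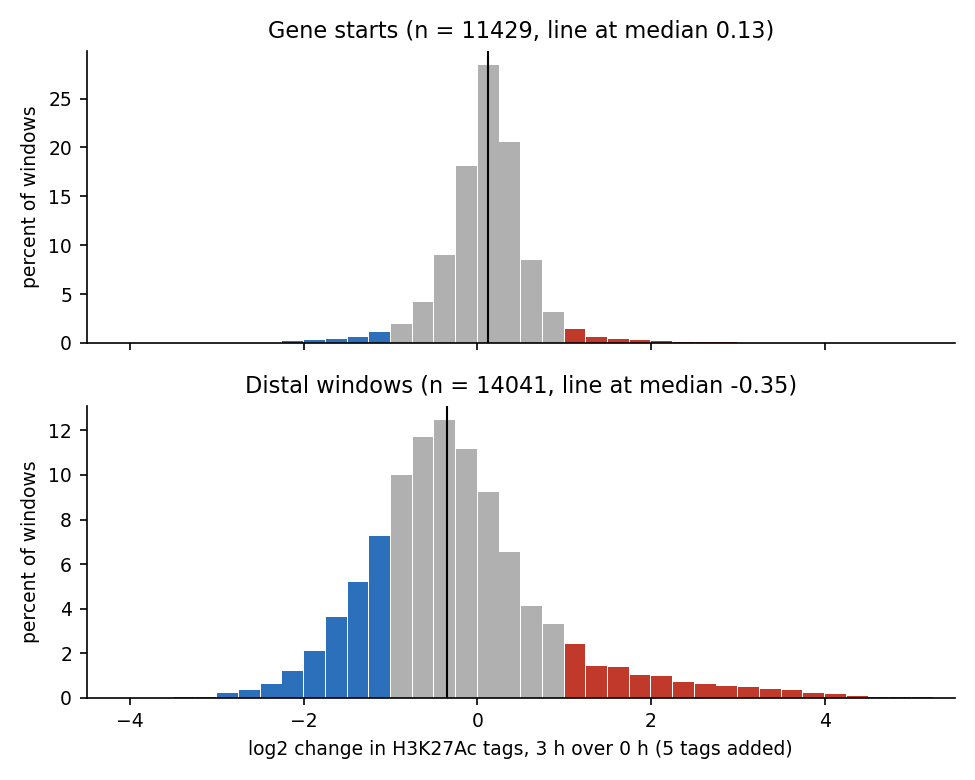
Percent of counted windows (y axis) by log2 change in H3K27Ac tags from 0 to 3 hpi (x axis, bins of 0.25) at 11429 gene starts (top) and 14041 distal windows (bottom). Red and blue bars are windows at least 2-fold higher or lower at 3 hpi and the vertical line is the median. The starts form a narrow peak at 0.13, whereas the distal windows are spread widely around -0.35 with a long tail of rises.

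The gap between the medians of starts and distal windows was present at every level. Among windows with 200 to 400 tags over the 2 libraries, the median was 0.13 at 2011 starts and -0.40 at 3797 distal windows, and over all 5 ranges of level it lay between 0.11 and 0.14 at starts and between -0.45 and -0.27 at distal windows. The share called higher did not follow at the lowest level: with 40 to 100 tags 13.11% of starts and 8.4% of distal windows were higher. Calls at starts depended on level, and from 800 tags up 1.14% of starts were higher. The share called lower was larger at distal windows in each range. The split into higher and lower windows depended on the scale. Scaled on bins without enrichment, 213 starts were higher and 534 lower and the start median became -0.14, and 1171 distal windows were higher and 4350 lower. Scaled on bins enriched at both times, the counts were 557 higher and 215 lower at starts and 1797 higher and 2238 lower at distal windows. Centred on the median of starts, 298 starts were higher and 408 lower, and centred within deciles of GC content 281 and 408. The distal median stayed below 0 in each case. It also stayed below that of starts, but most of these scalings move both kinds of window by about the same amount. The share of tags in enriched bins was 69.1% at 0 hpi and 62.7% at 3 hpi, and the part of this difference in the changes was not tested. GC content moved with the change as well: the distal median went from -0.04 in the decile poorest in GC, where 19.1% of windows were higher, to -0.46 in the richest, where 4.3% were, and the start median from 0.21 to 0.12. Set against the median of gene starts in the same decile of start GC, the distal median was -0.52. This does not centre distal windows on other distal windows of like GC content. The poorest decile of starts reached up to 45.1% GC, above the distal median of 44.8%.

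The distal windows with the largest rises had almost no H3K27Ac at 0 hpi, which ranking by the ratio favours, and were counted only through their tags at 3 hpi. The first was an intergenic window 53.0 kb upstream of Pln, the gene of the cardiac calcium pump regulator phospholamban, at chr10:53003001-53006000 (mm9), with 1 tag at 0 hpi and 203 at 3 hpi (log2 ratio interval 5.17 to 12.98). A window 364.2 kb upstream of Runx1, a blood cell transcription factor, at chr16:93189001-93192000, held 8 and 417 tags (change 5.02). A window 5.0 kb upstream of Gpnmb, a glycoprotein of macrophages and pigment cells, at chr6:48980001-48983000, held 7 and 379 tags (change 5.00), and a window 17.7 kb upstream of Gm4953, at chr1:161115001-161118000, held 5 and 313 (change 4.99). Each of the 4 held a match to TTGCNNAA, the letters searched for C/EBP on both strands. The stretch around the match nearest to the centre is shown for these 4 because their changes were the largest. The plus strand of mm9 is printed 5′ to 3′ with every match in capitals:
Pln, chr10:53004385-53004512: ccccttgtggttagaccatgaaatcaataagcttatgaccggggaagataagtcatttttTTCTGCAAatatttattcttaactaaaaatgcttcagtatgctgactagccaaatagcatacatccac
Runx1, chr16:93189742-93189869: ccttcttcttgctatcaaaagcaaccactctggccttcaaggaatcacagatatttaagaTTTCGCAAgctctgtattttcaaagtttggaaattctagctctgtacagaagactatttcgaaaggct
Gpnmb, chr6:48981346-48981473: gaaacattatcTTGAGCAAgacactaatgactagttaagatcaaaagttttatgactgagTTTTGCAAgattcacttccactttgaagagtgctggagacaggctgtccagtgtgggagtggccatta
Gm4953, chr1:161117104-161117231: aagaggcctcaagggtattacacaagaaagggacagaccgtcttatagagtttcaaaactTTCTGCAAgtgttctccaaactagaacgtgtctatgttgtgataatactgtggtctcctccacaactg
In the Pln and Gpnmb windows the match shown lay 52 and 91 bases from the centre of the window, and in the Runx1 and Gm4953 windows 695 and 667 bases. The Pln window held 4 matches, the Gpnmb and Gm4953 windows 3 each and the Runx1 window 1, where 73.4% of all counted distal windows held at least 1.

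The next rises were inside or near genes of blood and other cells. A window in an intron of Anxa2, at chr9:69311001-69314000, 10.6 kb downstream of an annotated start, went from 5 to 294 tags. The start measured for this gene, a later one that lies downstream of this window, was the most changed of all counted starts. Introns of Rora, a nuclear receptor, and of Rad51l1, a DNA repair gene, held windows with 12 and 496 and with 20 and 675 tags, and a window 60.9 kb downstream of the start of Spsb1 held 5 and 247. All of these 8 windows were without H3K27Ac enrichment at 0 hpi, and 3 of them (near Gpnmb, Gm4953 and Rora) already carried H3K4Me1. At later times they did not behave alike: the Pln window held 283, 511 and 937 tags at 12, 24 and 48 hpi, whereas the Gpnmb window held 317, 176 and 76.

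The deepest falls left few tags at 3 hpi, which ranking by the ratio favours. A window 7.3 kb upstream of Smoc1, a secreted calcium-binding protein gene, at chr12:82119001-82122000, held 317 tags at 0 hpi and 16 at 3 hpi (log2 ratio interval -5.13 to -3.59), and 661 at 12 hpi. An intron of 4933413G19Rik held 303 and 23 tags and stayed between 15 and 23 tags at 12 to 48 hpi. A window in Enpp1, 46.3 kb from the start of Ctgf, went from 269 to 20 tags, one 15.9 kb downstream of the start of Amotl2 from 209 to 15, and windows in introns of Dlgap1, Neurl1a and Ddr2 from 203 to 15, from 170 to 12 and from 106 to 6. The last of the 8, 111.4 kb downstream of the start of Opa1, held 143 and 10 tags and then 290 at 12 hpi. All 8 carried H3K4Me1 at 0 hpi. The Smoc1 window held 82 tags of that mark at both times and the Ctgf window 235 and 274, and the Dlgap1, Ddr2 and Opa1 windows also held more of it at 3 hpi. It was lower at 3 hpi in the other 3, with 340 and 293 tags in the 4933413G19Rik window, 130 and 104 in that of Amotl2 and 216 and 184 in that of Neurl1a.

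Letters bound by C/EBP were more frequent in windows that gained acetylation. TTGCNNAA occurred 0.636 times per kb (counting interval 0.614 to 0.660) in higher windows, 0.404 (0.391 to 0.417) in lower windows and 0.462 (0.456 to 0.469) in all counted distal windows, and 84.1%, 69.0% and 73.4% of the windows held at least 1 match. Among windows that lost acetylation the frequency did not follow the size of the fall: it was 0.418 per kb at the 357 windows that were 4-fold lower, 0.402 where the change lay between -2 and -1 and 0.411 between -1 and -0.5. Above that it was higher at larger changes, with 0.449 per kb between -0.5 and 0, 0.482 where the change lay between 0 and 0.5, 0.519 between 0.5 and 1, 0.595 between 1 and 2, 0.671 between 2 and 3 and 0.726 (0.667 to 0.789) at the 253 windows that were 8-fold higher or more. TTCNNNGAA, the letters of STAT factors, was also more frequent in higher windows, with 0.422 matches per kb against 0.337 in all and 0.301 in lower windows. CCCNNGGGA, the letters searched for EBF1, a factor that specifies B cells, ran the other way with 0.169 per kb in higher, 0.271 in lower and 0.219 in all windows. GAGGAAGT for PU.1 occurred at 0.091, 0.108 and 0.105 per kb in higher, lower and all windows. TGANTCA for AP-1 was at 0.358, 0.310 and 0.328, TGTGGTT for RUNX at 0.301, 0.293 and 0.295, the E-box CAGCTG at 0.519, 0.590 and 0.564, and AGGTCA, which is 1 arm of the estrogen response element, at 0.645, 0.711 and 0.685 per kb. Higher windows had a lower median GC content (42.7%) than lower windows (45.9%). Within deciles of GC, C/EBP and STAT letters were more frequent in higher than in all windows in 10 of 10 deciles (1.15 to 1.60 times for C/EBP and 1.04 to 1.59 for STAT) and EBF1 letters more frequent in lower windows in 10 of 10. The scarcity of EBF1 letters in higher windows held in 5 of 10 deciles, with a median ratio of 0.98. E-box letters turned around: they were more frequent in higher than in all windows in 7 of 10 deciles (median ratio 1.05). For the other letters, higher windows were above all windows in 1 decile for PU.1, 7 for AP-1, 5 for RUNX and 5 for the estrogen response arm. A match is only a run of letters, and binding was not measured in these libraries.

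Higher windows carried active marks before induction less often than other distal windows, although most carried one. This difference is partly set by how the windows were chosen. Of the 1524 higher distal windows, 946 (62.1%) had both H3K4Me1 and H3K27Ac at 0 hpi, 322 (21.1%) H3K4Me1 alone, 31 (2.0%) H3K27Ac alone and 225 (14.8%; exact interval 13.0 to 16.6%) neither, beside 1.6% of all counted distal windows with neither. H3K4Me1 was present at 0 hpi at 83.2% of higher, 99.6% of lower and 96.2% of all windows. The 225 unmarked windows had a median of 13 H3K27Ac tags at 0 hpi and 130 at 3 hpi, with 0.711 C/EBP matches per kb, and the 946 windows with both marks had medians of 73 and 256 tags, with 0.618 matches per kb. H3K27Me3 was enriched at 0 hpi in 11.3% of higher windows, 2.5% of lower and 4.7% of all windows. Windows inside introns made up 53.5% of higher and 44.2% of lower windows, and the median distance to the nearest start was 22.8 and 26.3 kb. The presence of H3K27Ac at 0 hpi takes part in the choice of higher windows and is given only as a description. Windows without it could enter the distal set only through their tags at 3 hpi. Of the 226 with neither active mark 225 were higher and 0 lower, so the shares of the other marks are partly set by the choice of windows too.

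H3K4Me1, measured in other libraries of the same times, was higher at windows with more H3K27Ac and nearly level at windows with less. Its median change from 0 to 3 hpi was 0.67 (95% interval over windows 0.65 to 0.70) at higher distal windows, 0.04 (0.03 to 0.05) at lower windows and 0.19 (0.18 to 0.20) at all counted distal windows. The change was above 0 at 97.2% of higher, 57.1% of lower and 74.2% of all windows. Of 486 distal windows with H3K4Me1 at least 2-fold higher, 421 (86.6%) were also higher in H3K27Ac and 5 lower, beside 10.9% and 20.9% of all windows. Distal windows were chosen by H3K27Ac, so sites that gained H3K4Me1 without it are not among them. Of 226 windows with neither mark at 0 hpi 225 were higher, so this share is partly set by the choice of windows. The 421 are 27.6% of the 1524. At gene starts the same count was 62 of 264 (23.5%), beside 3.32% of all starts. Median H3K27Me3 change was 0.00 at higher, lower and all distal windows. The H3K4Me1 scale is uncertain by 0.26, the amount by which bins without enrichment differed between the 2 libraries, and scaling on those bins puts the median at higher windows at 0.92 and at lower windows at 0.30.

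The gene starts with the largest rises had little acetylation at 0 hpi. Anxa2, encoding a calcium-dependent membrane-binding annexin, went from 6 to 225 tags (chr9:69326418-69329417, log2 ratio interval 4.08 to 6.69). This is the annotated start with most tags and not the first one, since another lies upstream of the intron window named above. Apoc1, an apolipoprotein gene, went from 7 to 239 tags, and its neighbours Apoc2 and Apoc4, whose windows overlap almost fully, from 14 to 274 and from 15 to 273. Apoe, which lies next to them and was looked up after the values of the others were seen, held 16 and 132 tags. Mmp27 and Mmp8, which encode matrix metalloproteinases (Mmp8 is the neutrophil collagenase), went from 24 to 526 and from 37 to 545. Others among the largest rises were Cldn14, a tight junction gene (5 to 164 tags), Sept14, a septin gene (3 to 121), and Adipoq, the gene of the hormone adiponectin (15 to 259). Cldn14 and Adipoq held 12 and 62 tags at 48 hpi, whereas Mmp27 and Mmp8 held 1062 and 1224.

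**Figure D2:**
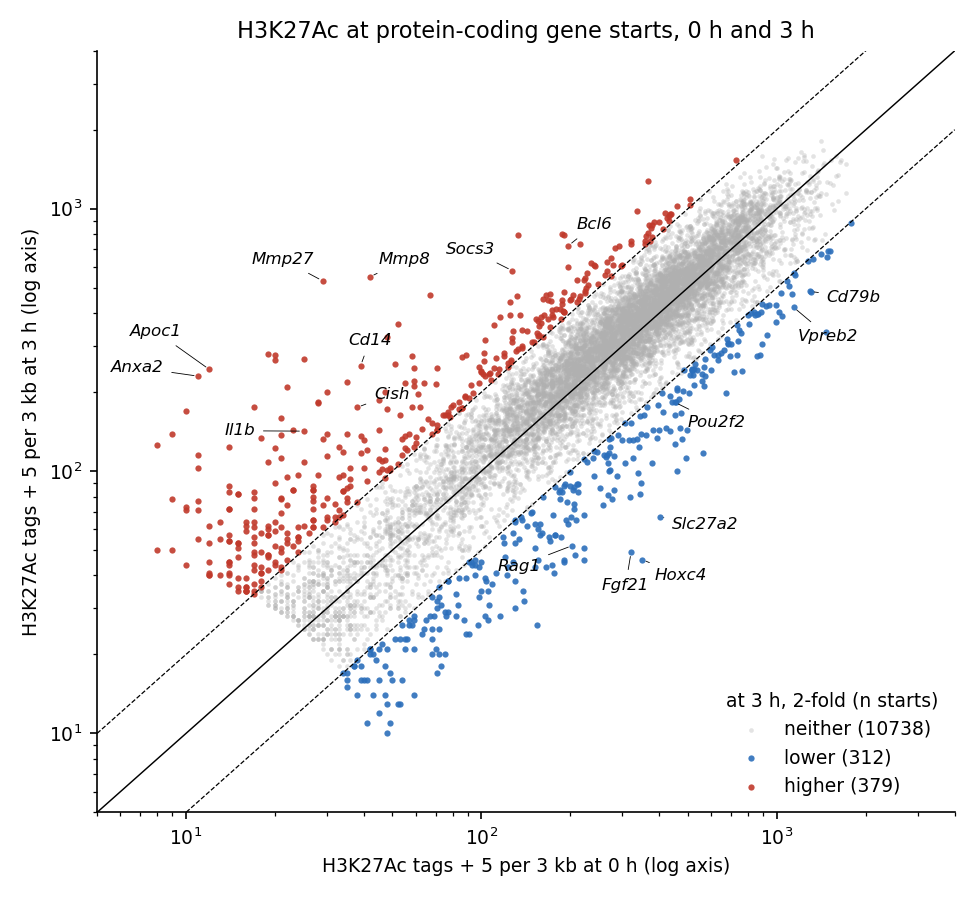
H3K27Ac tags per 3 kb plus 5 at 0 hpi (x axis, log) and 3 hpi (y axis, log) at 11429 counted gene starts, 1 point each, with equality as a solid line and 2-fold change as dashed lines. The 379 higher starts (red) lie mostly at low levels at 0 hpi, such as Anxa2 with 6 tags, and the 312 lower starts (blue) reach high levels, such as Cd79b with 1290 tags. The 0 hpi values take part in the choice of both.

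The largest falls among starts were at Hoxc4, a homeobox gene, with 345 tags at 0 hpi and 41 at 3 hpi (chr15:102847867-102850866, log2 ratio interval -3.58 to -2.60), and at Fgf21, a metabolic hormone gene, with 316 and 44. Slc27a2, which encodes a fatty acid transporter, went from 396 to 62, Sh3rf2 from 149 to 21, and Fut1, a fucosyltransferase gene whose window overlaps that of Fgf21, from 218 to 41. Ciita, the master regulator of MHC class II genes, went from 43 to 5 tags, Gm5431 from 556 to 112, the cholesterol exporter gene Abcg1 from 455 to 95 and the actin gene Actg2 from 44 to 6. Kdm6b, which encodes a demethylase of H3K27Me3, went from 487 to 107 and held 724 tags at 48 hpi, and its change was -0.86, under 2-fold, in windows of 6 kb. Hoxc4 held 252 tags and Slc27a2 52 tags at 12 hpi, so that some of these falls were followed by higher levels and others were not.

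Genes were also described by 14 lists, which were chosen with earlier results of these data known. The share of a list beside that of all starts is therefore only a description. It also depends on level: of starts with 40 to 100 tags over the 2 libraries 13.11% were higher and 7.4% lower. Of 14 genes of the response to IL-3 and STAT5, all counted, 6 were higher and 0 lower, beside 3.32% and 2.73% of all starts, and the median change was 0.68, which is 0.55 above that of all starts. On the scale of bins without enrichment 4 were higher and the median was 0.41. Cish, a feedback inhibitor of cytokine signalling, went from 33 to 170 tags (chr9:107196857-107199856, log2 ratio interval 1.82 to 2.95) and was counted only through its tags at 3 hpi. Socs3, another inhibitor of the same family, went from 122 to 576 (chr11:117829000-117831999, 1.96 to 2.53). Bcl6, a transcriptional repressor, went from 192 to 718, Id1, an inhibitor of E proteins, from 52 to 133, Socs2 from 421 to 919 and the receptor gene Csf2rb2, a near copy of Csf2rb, from 143 to 305. Socs1 held 608 and 922 tags (change 0.60), and the cytokine receptor genes Csf2rb and Il3ra held 440 and 632 and 220 and 308 (0.52 and 0.48). Pim1, Pim2, Osm and Bcl2l1, with changes between -0.30 and 0.08, were among the members that stayed within 2-fold. Distal windows within 100 kb of the 14 starts numbered 53, of which 14 (26.4%; exact interval 15.3 to 40.3%) were higher and 9 (17.0%) lower, beside 10.9% and 20.9% of all distal windows. The higher ones included all 3 near Bcl6 and 6 of 11 near Socs1, the best of which went from 16 to 180 tags. Such windows are not independent of each other, and these intervals cover counting only.

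Stretches with TTCNNNGAA, the letters of STAT factors, in capitals, are shown for 4 of the 6 higher genes of this list. For each gene the annotated start with most matches was used, and Cish and Socs2 had several annotated starts. The stretches lie within 250 bases upstream of that start, which at Socs3, Bcl6 and Socs2 is the start measured. At Cish it is a later start: the measured one had 0 matches upstream, and both stretches lie downstream of it, inside the 3 kb window. Of the other 2 higher genes, Id1 had 0 matches upstream of its start and Csf2rb2 had 1, which is not shown. Each stretch is on the strand of its gene, 5′ to 3′, in mm9:
Cish, chr9:107198985-107199014: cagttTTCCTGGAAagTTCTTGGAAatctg
Cish, chr9:107199093-107199122: ggTTCTAGGAAgatgaggcTTCCGGGAAgg
Socs3, chr11:117830542-117830571: ggccgggcagTTCCAGGAAtcggggggcgg
Bcl6, chr16:23989037-23989066: agcaaattagTTCTCAGAAttccagaggcc
Socs2, chr10:94879533-94879562: gcggaTTCCTGGAAagTTCCTGGAAagcgg
Of 45940 distinct protein-coding starts, 6.5% had at least 1 match within 250 bases upstream. That share is per start, whereas the stretches come from the start of each gene with most matches. The full 3 kb windows held 6 matches at Bcl6, 5 at Cish, 4 at Socs2, 2 at Socs3 and 1 each at Id1 and Csf2rb2, where 57.7% of counted starts held at least 1. Osm, with 5, and Bcl2l1 and Pim2, with 3 each, were not higher, and upstream of a start Bcl2l1 and Csf2rb, which were not called either, held a match too. On average a counted start window held 0.87 matches, a higher one 1.06 and a lower one 0.78.

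Of 16 inflammatory cytokine and chemokine genes 11 were counted, with 6 higher and 1 lower, beside 3.32% and 2.73% of all starts. Il1b, Il1rn and Il6 reached the counting minimum only through their tags at 3 hpi, so these calls and the median of 1.16 over the counted genes are partly set by that minimum. The median changed with it: over all 16 genes it was 0.67, and at the 5′ end of the gene 0.71. Il1b, the gene of interleukin 1β, went from 20 to 137 tags, Il1rn, which encodes its natural antagonist, from 25 to 134, and Ptgs2, the inducible cyclooxygenase, from 40 to 182. Il6 went from 15 to 54 and the chemokine genes Ccl6 and Ccl9 from 161 to 465 and from 394 to 887. Il1r2, a decoy receptor for interleukin 1, went from 178 to 78, but on bins enriched at both times 0 genes of the list were lower. On bins without enrichment and within deciles of GC 5 were higher, and Ccl9 was at 0.82 in at least 1 alternative. Tnf, with 545 and 511 tags, and Ccl3, with 268 and 309, already had the mark in uninduced cells. Il1b had 0 distal windows within 100 kb, and the 11 counted genes together had 25, of which 4 were higher (exact interval 4.5 to 36.1%), beside 10.9% of all.

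Of 21 genes of granules and lysosomes 13 were counted, with 6 higher and 0 lower, beside 3.32% and 2.73% of all starts, or 3 higher on the scale of bins without enrichment. All of the 6 but Lyz2 held fewer than 40 tags at 0 hpi, and Lyz1 and Elane passed the counting minimum only with the tags of both times added. This count is therefore largely set by the minimum. The median of 0.88 depended on which genes and bases were counted: it was 0.16 with a minimum of 100 tags, 0.35 in windows of 1 kb, 0.58 over all 21 genes and 0.61 on the scale of bins without enrichment. The higher ones were Mmp8, Mmp12 (14 to 57 tags), the antimicrobial peptide gene Camp (12 to 59), the lysozyme genes Lyz2 (121 to 260) and Lyz1 (12 to 32), which are near-identical copies, so that uniquely placed tags may miss shared parts, and Elane, neutrophil elastase (16 to 37). Mmp12, Camp, Lyz1 and Elane lay in the range of 40 to 100 tags over the 2 libraries, where 13.11% of counted starts were higher. Among the counted genes that did not reach 2-fold, the granule protease gene Prtn3 held 629 and 674 tags and the gelatinase gene Mmp9 137 and 151. Of the genes of lysosomal proteins, Ctsd held 266 and 298 tags, Ctsb 418 and 447, Lamp1 197 and 170, Ctss 232 and 281, and Ctsz 463 and 858 (change 0.88). Around these starts 17 of 45 distal windows (37.8%; 23.8 to 53.5%) were higher and 7 (15.6%) lower, beside 10.9% and 20.9% of all distal windows, and their median change was -0.04. Of the 17 higher ones 10 lay in the matrix metalloproteinase cluster, 5 of 5 near Mmp8, up to 35 and 774 tags, and 5 of 6 near Mmp12, and 3 of 7 near the lysozyme genes. The share therefore rests largely on 1 cluster.

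Macrophage receptors and adaptors were mixed. Of 24 genes 18 were counted, with 3 higher and 1 lower, beside 3.32% and 2.73% of all starts, and a median of 0.06, which was below 0 under 3 of 4 other scalings, and 1 gene, Cd14, was higher on the scale of bins without enrichment but 6 on that of bins enriched at both times. Cd14, the co-receptor for bacterial lipopolysaccharide, went from 34 to 247 tags (log2 ratio interval 2.34 to 3.42), Sirpa, an inhibitory receptor of phagocytes, from 183 to 444, and Csf1r, the receptor of CSF-1, from 54 to 119. Cd14 was counted only through its tags at 3 hpi. The lower gene, Itgam, which encodes the macrophage integrin CD11b, held 34 and 11 tags and passed the counting minimum only with the tags of both times added. Tlr2, Fcgr1 and Cd36 had changes of 0.89, 0.89 and 0.97, just under 2-fold. On the other side, the lysosomal glycoprotein gene Cd68 held 163 and 98 tags, the Fc receptor gene Fcgr2b 752 and 505, the integrin gene Itgb2 212 and 144, and Fcgr3 and Fcer1g had changes of -0.56 and -0.52. Of 86 distal windows near these starts 14 (16.3%; exact interval 9.2 to 25.8%) were higher and 15 (17.4%; 10.1 to 27.1%) lower, and both intervals hold the shares of all distal windows, 10.9% and 20.9%. All 3 distal windows near Cd14 were higher, the best from 38 to 487 tags, and windows near Sirpa and Tlr2 went from 6 to 263 and from 3 to 156, while 4 of the 7 windows near Itgam were lower.

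**Figure D3:**
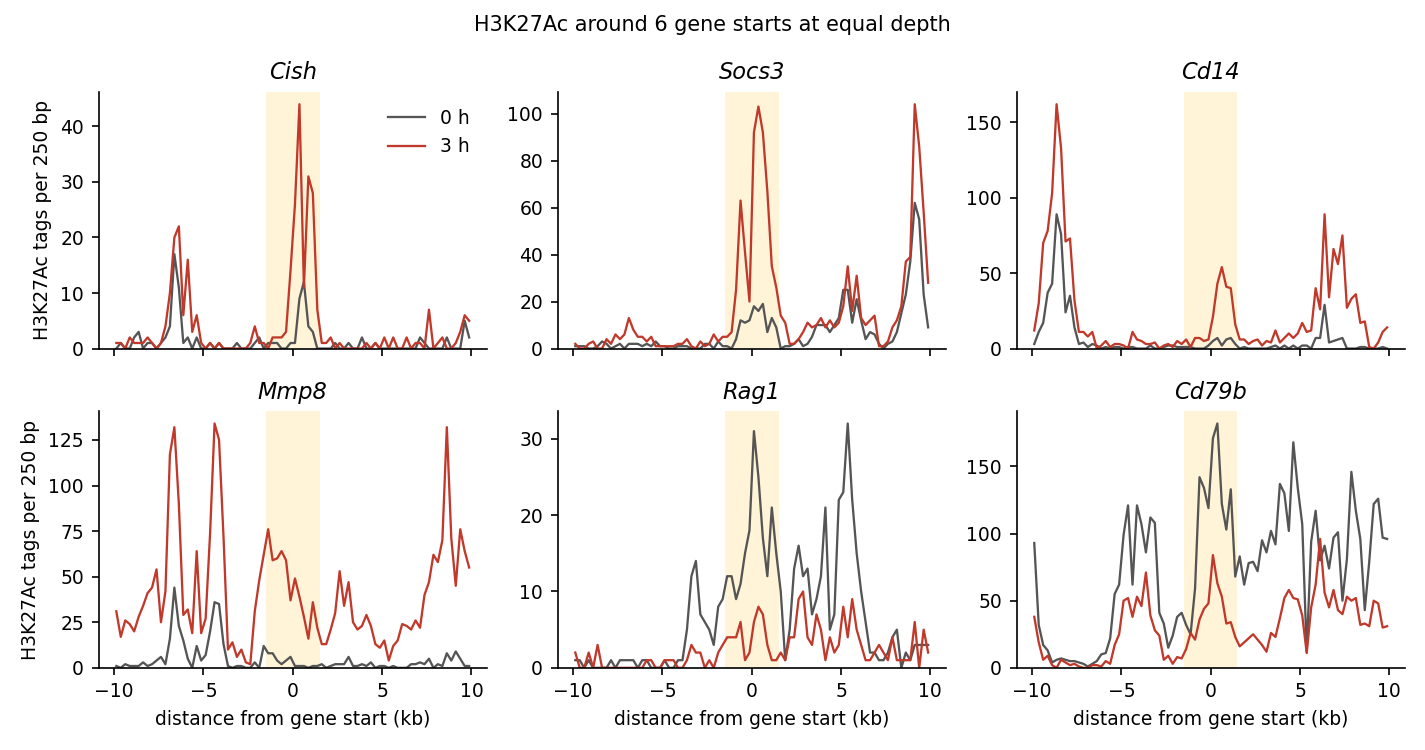
H3K27Ac tags per 250 bp at equal depth (y axis) against distance from the gene start in kb, in the direction of transcription (x axis), at 0 hpi (grey) and 3 hpi (red) around 6 gene starts, with the 3 kb window shaded. The 3 hpi line lies mostly above the 0 hpi line in the windows of Cish, Socs3, Cd14 and Mmp8 and below it in those of Rag1 and Cd79b.

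Immediate early and AP-1 genes were counted in full, 21 of 21, with 2 higher and 0 lower, beside 3.32% and 2.73% of all starts, and a median of 0.39. Under the other scalings 1 to 4 were higher. Fosl2 went from 205 to 528 tags and the nuclear receptor gene Nr4a1 from 114 to 276. Fos, Fosb, Jun and Ier3 had changes of 0.76, 0.87, 0.54 and 0.76, and Junb, Jund and Egr1 of 0.04, -0.01 and 0.08. Of 100 distal windows within 100 kb of these starts 7 (7.0%; exact interval 2.9 to 13.9%) were higher and 17 (17.0%; 10.2 to 25.8%) lower, intervals that hold the shares of all distal windows, and the median was -0.26. The only such window near Fosl2 went from 5 to 143 tags. None of the 12 NF-kB genes and feedback inhibitors reached 2-fold in either direction, but Tnfaip3 and Nfkbiz, both feedback genes, were close with 366 and 720 and with 363 and 693 tags (0.97 and 0.92), and on the scale of bins enriched at both times 2 of the 12 were higher. Near the 12 starts 9 of 56 distal windows were higher (16.1%; 7.6 to 28.3%), an interval that holds the 10.9% of all distal windows, and 3 (5.4%; 1.1 to 14.9%) were lower, beside 20.9% of all. Near Tnfaip3 4 of 7 were higher, the best from 42 to 517 tags.

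The transcription factors of the myeloid lineage were mostly acetylated before induction. Spi1, which encodes PU.1, held 1320 tags at 0 hpi and 1290 at 3 hpi at the annotated start with most tags, which lies about 14 kb upstream of the last annotated one, and the window of the study's -14 kb site there held 1286 and 1313. The last annotated start held 1007 and 1161. Of 11 counted genes of this list 1, Nfe2, was higher (354 to 747) and 1, Irf5, lower (1029 to 471), beside 3.32% and 2.73% of all starts. Nfe2 stayed under 2-fold on bins without enrichment, centred on starts, within deciles of GC and in windows of 1 kb (change 0.62), and Irf5 on bins enriched at both times and in windows of 6 kb (-0.92). Irf8 held 1002 and 553 tags and Fli1 875 and 1215. None of the 4 counted C/EBP family genes was called. Cebpb held 632 and 492 tags at its start and Cebpa 98 and 106, while Cebpd, which is not annotated as protein-coding in the annotation used and was measured apart, held 122 and 244 (change 0.97). The site 65 kb from the Cebpb start stood out from its surroundings with 159 and 632 tags (log2 ratio interval 1.74 to 2.25), and it was the place of the only higher window of 10 within 100 kb, while the site at 88 kb held 897 and 1040.

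Of the other example sites, the window 24 kb into Tlr4 went from 6 to 133 tags, although the start of Tlr4 held 880 and 780. The window 16 kb upstream of Ctsd held 9 and 25 tags, under the counting minimum, before 144, 384 and 646 at 12, 24 and 48 hpi. The window 3 kb into Csf1r held 124 and 145 tags, and the one 150 kb upstream of Tgfbr2 820 and 703.

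Acetylation was lower at part of the pre-B genes. Of 20 genes of the pre-B receptor, the B cell surface and recombination, all counted, 6 were lower and 2 higher, beside 2.73% and 3.32% of all starts, with a median of -0.57. The number lower depended on the scale, with 4 on bins enriched at both times, 9 on bins without enrichment, 8 centred on starts and 9 within deciles of GC. Rag1, which encodes a subunit of the recombinase, went from 198 to 47 tags (chr2:101488158-101491157, log2 ratio interval -2.57 to -1.61), Vpreb2, a surrogate light chain gene, from 1134 to 416, and Cd79b, a signalling subunit of the B cell receptor, from 1290 to 479. Cd72, Cd22 and Rag2 went from 640 to 276, from 679 to 304 and from 590 to 284, and on bins enriched at both times Cd22 and Rag2 were under 2-fold (-0.99 and -0.88), Rag2 also in windows of 1 kb and with another random thinning. Some other genes of the same receptor kept their tags: Vpreb1, a near copy of Vpreb2, held 1074 and 1085 and Igll1 1578 and 1584. Vpreb3 and Blnk of this list came close to 2-fold lower, with 1020 and 526 and with 1261 and 691 tags (-0.95 and -0.86). Il7r, the receptor of the pre-B growth factor interleukin 7, held 1132 and 1026. Cd79a had a change of -0.56. The 2 higher members, Ms4a1 (7 to 36) and Flt3 (13 to 36), had low levels and passed the counting minimum only with the tags of both times added. Near these starts 23 of 73 distal windows (31.5%; 21.1 to 43.4%) were lower and 4 (5.5%) higher, beside 20.9% and 10.9% of all distal windows, and the lower bound of the interval nearly touches the share of all. The lower ones included 3 of 3 near Cd79b and 5 of 6 near Vpreb2.

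Of 15 B lineage transcription factor genes, all counted, 1 was lower and 0 higher, near the 2.73% and 3.32% of all starts, but 14 lay below the median of all starts and their own median was -0.34. The lower one was Pou2f2, the octamer-binding factor Oct-2, with 446 and 178 tags. Pax5, which keeps B cells in their lineage, held 1331 and 753 tags (change -0.82), Tcf3 1157 and 763, Foxo1 889 and 601, and Ikzf3, Spib and Bach2 had changes between -0.57 and -0.47, whereas Ebf1 held 1019 and 956, Ikzf1 1363 and 1315 and Pou2af1 1181 and 1077. The 87 distal windows near these genes included 26 lower (29.9%; 20.5 to 40.6%) and 10 higher (11.5%), beside 20.9% and 10.9% of all distal windows, and the interval of the lower share just holds the share of all. On the scale of bins without enrichment the median was -0.62 and 2 starts were lower.

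**Figure D4:**
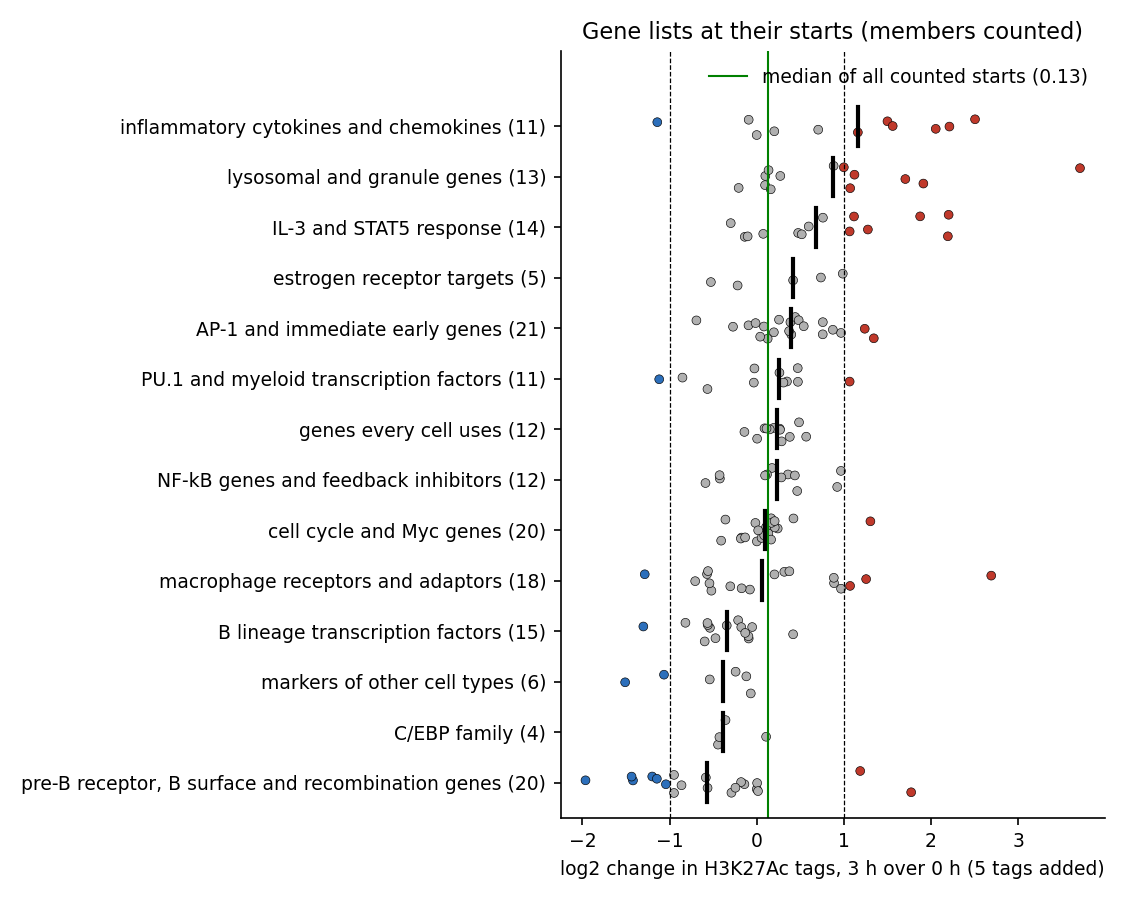
Log2 change in H3K27Ac tags from 0 to 3 hpi (x axis) for the counted members of 14 gene lists (y axis, number of members in parentheses), 1 point per gene in red if higher, blue if lower and grey if neither, with the list median as a black bar, all starts as a green line (0.13) and 2-fold as dashed lines. The inflammatory, granule and IL-3 lists lie highest and the pre-B list lowest, but several inflammatory and granule genes were counted only through their tags at 3 hpi, and with a minimum of 100 tags the granule median is 0.16. With bins without enrichment as the scale, the medians of the NF-kB, PU.1, cell cycle, every-cell and macrophage receptor lists fall below 0.

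Of 20 cell cycle and Myc genes 1, Mycn, was higher (29 to 79 tags, counted only through its tags at 3 hpi), a share near the 3.32% of all starts, and the median was 0.10, or between -0.17 and -0.02 under 3 of 4 other scalings, with Myc at 661 and 887. None of 12 genes that every cell uses was called, with changes from -0.14 to 0.57 and a median of 0.23, or -0.04 on the scale of bins without enrichment. Of 10 known estrogen receptor targets 5 were counted and none was called, with a median of 0.42 and with Xbp1, a factor of the unfolded protein response, at 430 and 858 tags (0.99). On bins enriched at both times 1 of the 5 was higher. Among markers of other cell types 6 of 16 were counted and 2, the platelet genes Pf4 (200 to 67) and Gp9 (41 to 17), were lower, beside 2.73% of all starts, and the median was -0.39. On bins enriched at both times 1 gene of this list was lower, and Gp9 was under 2-fold in at least 1 alternative. The defining T cell genes Cd3d, Cd3e, Cd3g, Cd4 and Cd8a were under the minimum, with 5 to 12 tags at 0 hpi.

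Starts and nearby distal windows changed in the same direction more often than apart. A higher distal window lay within 100 kb of 182 of 379 higher starts (48.0%; exact interval 42.9 to 53.2%), 37 of 312 lower starts (11.9%) and 18.9% of all counted starts. A lower distal window lay within 100 kb of 202 of 312 lower starts (64.7%; 59.2 to 70.0%), 76 of 379 higher starts (20.1%) and 32.0% of all. Neighbouring starts share windows, and 2590 counted start windows overlap another, so these starts are not independent.

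Some called windows of one direction lay in runs. With gaps of at most 50 kb between successive windows called in the same direction, 1549 lower and 998 higher windows stood alone. Runs of at least 5 held 142 of the 2935 lower windows, in 24 runs, and 40 of the 1524 higher ones, in 7. The runs named here were picked after their values were seen. The lower run with most windows held 10 over 201 kb around Grb10, an adaptor of growth factor receptors, at chr11:11675001-11876000, with 6913 tags in all at 0 hpi and 2266 at 3 hpi, and the starts of Grb10 and Ddc in it were lower too. A run of 6 lower windows, with 2448 and 578 tags, lay at chr11:24142001-24242000. The nearest start was that of Bcl11a, a factor of early B cells, 162830 bases from the centre of the first window, and it held 890 and 767 tags. Within 100 kb of that start 0 of 5 windows were lower and 1 was higher, from 42 to 500 tags. Of the higher runs, those of 7 and 5 windows around Mmp13 and Mmp27 lie in the matrix metalloproteinase cluster of chromosome 9, with 693 and 2697 and with 671 and 3342 tags. In that cluster the starts of Mmp13 (48 to 159), Mmp12, Mmp10 (12 to 44), Mmp8 and Mmp27 were higher, while Mmp1b, Mmp3, Mmp1a, Mmp20 and Mmp7 were under the minimum. Other higher runs lay near Lpp, with 6 windows, and around Adipoq, with 5 windows and 234 and 1265 tags.

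The classes set at 3 hpi were apart in their medians in later libraries, which took no part in their choice, but many single windows returned. The counts that follow use the 0 hpi library again, whose values helped to choose the windows, and are a description only. At 12 hpi, with 5 tags added as before, 1096 of 1524 higher distal windows (71.9%) and 216 of 379 higher starts (57.0%) were at least 2-fold above their 0 hpi level. Of the lower ones, 988 of 2935 distal windows (33.7%) and 154 of 312 starts (49.4%) were back within 2-fold of it or above it. At distal windows called higher the median was 222.5, 256 and 177 tags at 12, 24 and 48 hpi, and at windows called lower it was 84, 77 and 74. The levels that chose them were medians of 42 and 190.5 at 0 and 3 hpi for higher windows and of 219 and 73 for lower windows. At gene starts called higher the later medians were 172, 190 and 132 tags, and at starts called lower 86.5, 81.5 and 82. Windows in neither class had distal medians of 144, 153 and 119 tags at these times. Their start medians were 279, 291 and 233, above those of starts called higher. The quartiles of the higher and lower classes overlapped at all 3 later times, at starts and at distal windows, so the medians do not describe every window.

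**Figure D5:**
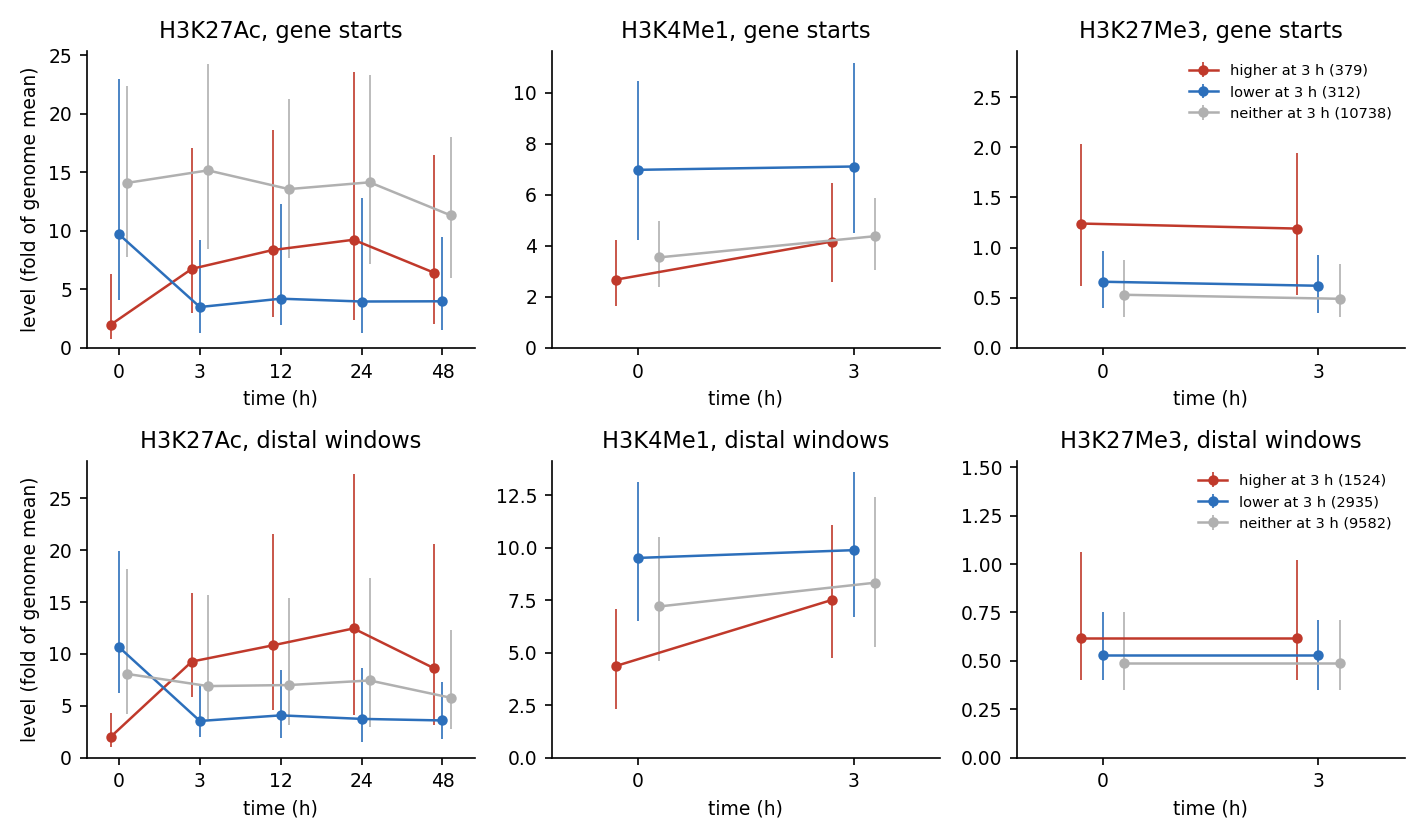
Median level of each mark as a fold of the genome mean (y axis, with quartiles as bars) at 0 to 48 hpi for H3K27Ac and at 0 and 3 hpi for H3K4Me1 and H3K27Me3 (x axis, times evenly spaced and not to scale), at gene starts (top) and distal windows (bottom) called higher (red), lower (blue) or neither (grey) by H3K27Ac at 3 hpi. The 0 and 3 hpi H3K27Ac values chose the classes. H3K4Me1 is higher at 3 hpi than at 0 hpi at windows called higher and level at those called lower, and H3K27Me3 medians at distal windows are the same at both times.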

How the data were processed

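The deposited files list tag positions, not counts: every line places a single 36 bp tag on a chromosome and gives no strand. The authors aligned Illumina reads to mm9 with Eland or Bowtie without mismatches, kept unique alignments and removed identical tags. On chromosomes 1 to 19 and X, 4.42% and 4.55% of tags at 0 and 3 hpi were a second tag at a position. No position held more than 2 tags. Such pairs may lie on opposite strands, which cannot be checked, so keeping 1 tag per position may drop tags that are not identical. Here 1 tag per position was kept on chromosomes 1 to 19 and X, and both libraries were thinned at random to 15216488 tags. Tags were counted at their centre in 3 kb windows, at the protein-coding start (GENCODE annotation of mm9) with most tags over both libraries, or on the highest bin of distal regions (bins of 1 kb passing a Poisson tail of 0.001, highest bin at least 4-fold over the mean). With 1 library a time no test was run: a call is a 2-fold change with 5 tags added and at least 40 tags, and exact 95% binomial or Poisson intervals cover counting error only. H3K4Me1 was thinned to 14.19 and H3K27Me3 to 18.13 M tags per library. Genes named are members of 14 lists, the 10 starts and 8 distal windows with the largest change each way, and the study's example sites, some of which are not reported here, and Apoe, the genes at runs and the metalloproteinase cluster, picked after their values were seen. The members and lists were chosen with earlier results of these data known. The counting was tested on simulated data. Python 3.11.15, numpy 2.4.6, pandas 2.3.3 and scipy 1.17.1 were used. Chromosome Y, contigs and the mitochondrial genome were left out.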

Additional observations from a re-analysis of the deposited data

Results flagged for a closer look

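Tags on chromosome Y were left out of all counts above, and both files held more of them than the 3 that a count of 0 allows for: 1042 distinct positions at 0 hpi and 2201 at 3 hpi, before thinning. The files of 12, 24 and 48 hpi held 1108, 1173 and 2252.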

How the results depend on the processing

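No paired analysis was possible because a time had only 1 library, and none could be left out. Over 40 summary results and 19 alternatives, 273 of 330 values kept their direction and lay within 1.5 times the reported count or inside the interval of the reported value, 46 moved and 11 reversed; the causes were not tested. For small lists that interval is wide, and medians inside it went from 0.88 to 0.16 (granules, minimum of 100 tags), 1.16 to 0.67 (inflammatory, no minimum), 0.39 to 0.12 (AP-1, bins without enrichment) and 0.42 to 0.10 (estrogen targets, minimum of 100 tags). Fold thresholds of 1.5 and 4 gave 1271 and 72 higher and 792 and 25 lower starts, and 2341 and 645 higher and 5394 and 357 lower distal windows. Without a fold minimum for the highest bin 2849 distal windows were higher (median -0.23), and with an 8-fold minimum 747 were higher and 1936 lower (median -0.39). Without a tag minimum 941 starts were higher, and in 1 kb windows 204 were lower. On the scale of bins without enrichment 213 starts were higher and 534 lower. The distal median was -0.61 on that scale, -0.19 on bins enriched at both times and -0.47 centred on starts. It was -0.52 set against starts within deciles of their GC, -0.31 with 20 tags added and -0.32 in 6 kb windows. The start median was -0.14, 0.29, 0.0 within deciles of GC, 0.15 with tags as deposited, and 0.19 and 0.10 in 1 and 6 kb windows. On bins without enrichment the list medians became -0.62 (B lineage factors), -0.66 (C/EBP), -0.04 (NF-kB), -0.01 (PU.1), -0.17 (cell cycle), -0.04 (every cell) and -0.21 (macrophage receptors). On bins enriched at both times they were 0.26 (cell cycle) and 0.39 (every cell). Centred on starts they were -0.52 (C/EBP), -0.03 (cell cycle) and -0.06 (macrophage receptors), and within deciles of GC -0.49, -0.02 and -0.02, and 0.09 (every cell). In the central 1 kb, matches relative to all windows were 1.60 (C/EBP), 1.15 (AP-1), 1.13 (RUNX) and 1.34 (STAT) in higher windows and 0.84 (C/EBP) and 0.84 (STAT) in lower ones. Median H3K4Me1 change was 0.92 and 0.30 at higher and lower windows on background bins, 0.64 and 0.06 with the 8-fold minimum and 0.02 at lower windows without one, and H3K27Me3 at higher windows -0.08 with the 8-fold minimum. Of 74 named starts and windows, 0 reversed under 12 alternatives and 18 starts fell under 2-fold in at least 1: Ccl9, Cd22, Csf1r, Csf2rb2, Elane, Flt3, Gp9, Il1r2, Irf5, Itgam, Kdm6b, Lyz1, Lyz2, Nfe2, Nr4a1, Rag2, Sirpa and Socs2. All 16 named distal windows stayed past 2-fold.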
